A study of Mus musculus with 20 samples.

Results

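High-density lipoprotein (HDL) remodelling and cholesterol efflux were followed through the acetylated chromatin of 7 mouse genes, Pltp, Lcat, Lipc, Scarb1, Abca1, Abcg1 and Lipg, out of 21887 protein-coding genes of the annotation. The genes were named with earlier old-against-young results of these lists known, and the locus of each was its RefSeq span in the mm10 build with 5 kb added on both sides. H3K27ac is the acetylation of lysine 27 of histone H3, which active promoters and enhancers carry. All regions enriched for it that overlapped a locus were taken from the 10 deposited region lists, and their tags and lengths were summed per library. Hepatocytes, the parenchymal cells of the liver, had been isolated by a two-step perfusion from old C57BL/6J mice of 23 months (5 libraries) and from young C57BL/6N mice of 5 months (5 libraries). The labels give neither group an engineered allele or a treatment. Age and substrain could not be told apart, and the labels do not say whether each library came from its own mouse, so all errors below are the spread between libraries.

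HDL particles take up cholesterol that cells export, esterify it and return it to the liver for excretion. The liver starts the process, since hepatocytes lipidate newly secreted apolipoprotein A-I, and it also ends it by taking up the cholesteryl ester. Mice lack cholesteryl ester transfer protein, so most of their plasma cholesterol travels in HDL. The members stand for the steps of this cycle. Abca1 and Abcg1 encode transporters that load cholesterol onto lipid-poor apolipoprotein A-I and onto mature HDL. Lcat encodes the plasma enzyme that esterifies the cholesterol, and Pltp the transfer protein that moves phospholipid onto HDL and remodels its size. Lipc (hepatic lipase) and Lipg (endothelial lipase) hydrolyse HDL lipids, and Scarb1 encodes the receptor SR-BI for selective uptake of HDL cholesteryl ester.

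Each locus lay on a chromosome of its own. In mm10 coordinates, the spans were chr2:164839518-164857708 for Pltp, chr8:105939551-105943402 for Lcat, chr9:70798128-70952221 for Lipc, chr5:125277087-125341094 for Scarb1, chr4:53030789-53159988 for Abca1 and chr17:31057694-31117984 for Abcg1. The windows of Pltp (with Ctsa) and Lcat (with Psmb10 and Slc12a4) also held other protein-coding genes, so a region there cannot be given to one gene alone. Promoters from 250 bases before to 50 bases from the annotated start were available for 4 members (RefSeq, GRCm38.p6, the assembly of mm10, all on the minus strand). They are shown because the difference between ages described below for Pltp lay around its start, while at Abca1, Lcat and the second of the annotated Lipc starts a region covered the start in all 10 libraries. Capitals mark motif matches on either strand. Searched were the nuclear receptor half-site AGGTCA, the liver X receptor type repeat DR4 (AGGTCA, any 4 bases, AGGTCA) with up to 3 mismatches in its 12 fixed bases, the E-box CACGTG, the GC box GGGCGG, the CCAAT box CCAAT and the TATA box TATAAA.
Pltp, chr2:164857659-164857958, minus strand: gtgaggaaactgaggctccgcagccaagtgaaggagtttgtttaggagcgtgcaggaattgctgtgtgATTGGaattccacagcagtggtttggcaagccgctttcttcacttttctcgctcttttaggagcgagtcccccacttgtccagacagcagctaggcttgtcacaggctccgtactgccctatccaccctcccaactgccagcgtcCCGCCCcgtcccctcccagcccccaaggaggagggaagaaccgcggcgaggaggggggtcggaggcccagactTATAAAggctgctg
Abca1, chr4:53159846-53160145, minus strand: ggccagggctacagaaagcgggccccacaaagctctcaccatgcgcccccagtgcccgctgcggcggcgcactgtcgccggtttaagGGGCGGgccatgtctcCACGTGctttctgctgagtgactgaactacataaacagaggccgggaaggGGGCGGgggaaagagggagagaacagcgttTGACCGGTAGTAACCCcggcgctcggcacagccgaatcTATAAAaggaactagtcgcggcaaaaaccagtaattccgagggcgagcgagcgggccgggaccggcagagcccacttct
Lcat, chr8:105943353-105943652, minus strand: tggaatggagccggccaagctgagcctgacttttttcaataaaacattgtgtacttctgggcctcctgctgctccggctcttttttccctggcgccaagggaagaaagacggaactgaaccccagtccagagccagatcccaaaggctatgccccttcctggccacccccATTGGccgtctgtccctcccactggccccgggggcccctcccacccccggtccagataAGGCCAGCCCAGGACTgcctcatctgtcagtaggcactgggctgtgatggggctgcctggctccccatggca
Lipc, second annotated start, chr9:70934759-70935058, minus strand: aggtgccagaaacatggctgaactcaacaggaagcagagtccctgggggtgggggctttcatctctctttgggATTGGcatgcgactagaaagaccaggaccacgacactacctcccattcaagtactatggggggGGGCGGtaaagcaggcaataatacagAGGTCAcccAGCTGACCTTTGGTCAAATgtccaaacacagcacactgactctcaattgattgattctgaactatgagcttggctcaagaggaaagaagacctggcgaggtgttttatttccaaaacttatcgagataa

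Positions are counted from the annotated start as 0, with bases before it negative. The Pltp promoter held an inverted CCAAT box at -182, an inverted GC box at -37 and a TATA box at 36, inside the transcribed part. The Abca1 promoter held GC boxes at -163 and -97, an E-box at -147, a TATA box at -29 and an inverted DR4 match with 3 mismatches at -67. The Lcat promoter held an inverted CCAAT box at -80 and a DR4 match at -22, also with 3 mismatches. The second Lipc promoter held a half-site at -88, an inverted half-site at -76, a GC box at -114 and an inverted CCAAT box at -177. The half-site at -76 lay inside a pair of overlapping DR4 matches at -79 and, inverted, at -76, with 3 mismatches each. Each of these motifs was frequent. Of 32544 RefSeq promoters of the same length, 16.2% held the half-site, 21.9% a DR4 match, 7.17% the E-box, 35.9% the GC box, 37.4% the CCAAT box and 13.6% the TATA box. The guanine and cytosine content was 59.0% for Pltp, 62.7% for Abca1, 61.3% for Lcat and 48.7% for the second Lipc promoter.

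The libraries held 6295930 to 9847344 tags in old and 7341342 to 15544145 tags in young hepatocytes, and all values are tags scaled by the authors to 10000000 per library. The share of tags in called regions was 24.5% to 35.8% in old and 34.6% to 48.2% in young libraries. The median of the 9703 gene loci with a region in all 10 libraries differed by -0.34 on the log2 scale, so log2 differences (old minus young, on log2 of tags plus 1) were taken relative to that median locus and are called adjusted. Young replicate 5 stood apart by its fragment length of 620 bp, against 440 to 444 bp in the old and 414 to 444 bp in the other young libraries, and was also the deepest. The 9 hepatocyte marker loci that matched the annotation, of 10 listed, were called in every library. Their summed tags, not adjusted, were 4266 to 6915 in old and 7415 to 10404 in young libraries, which did not overlap. On that scale the median locus was lower in old as well, and 9.23% of all 9703 loci were lower in old without overlap. Of 10 Kupffer cell and macrophage markers, 8 were listed at 0 in every library, Clec4f, Cd5l, Vsig4 and Timd4 among them, with summed tags of 482 to 853 in old and 722 to 1068 in young libraries. At 0 everywhere were also 8 of 10 stellate cell markers (summed tags of 56.2 to 145 in old and 0 to 186 in young libraries), 3 of 10 sinusoidal endothelial markers (138 to 519 in old, 293 to 421 in young), 4 of 6 cholangiocyte markers (222 to 520.1 in old, 253 to 580.4 in young) and 4 of 6 lymphocyte markers (415 to 601 in old, 370 to 760.1 in young). Cd68, Stab2, Sox9 and Nkg7 were the markers of other cells called in every library. The part of other cell types in the values below was not tested.

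Lcat was the most densely acetylated locus, and Abcg1 was almost bare. Of the Lcat tags, 42.3% lay in a block over Psmb10 outside its span. The other 57.7% lay in the block over its start, which also overlaps Slc12a4. Pltp came next to Lcat, with 58.5% of its tags in a region over Ctsa and Neurl2 beyond its end. That region began at 164832366, outside the Pltp window, which began at 164834518. Its tags were counted whole, so the Pltp level per kb of locus includes tags from outside the length divided by. Per kb of locus, mean tags over the 10 libraries were 26.8 ± 9.15 for Lcat, 19.4 ± 3.07 for Pltp, 12.3 ± 6.28 for Lipg, 8.71 ± 2.24 for Abca1, 8.67 ± 3.22 for Scarb1, 5.69 ± 3.22 for Lipc and 0.126 ± 0.16 for Abcg1 (SD, n = 10). Neighbours in this order were compared by a two-sided exact paired permutation test over the 10 libraries, adjusted by Benjamini-Hochberg over 6 pairs. The order, and with it the pairs compared, came from these same values, and the 10 libraries mix both ages. The p-values therefore describe the steps and do not test a ranking set beforehand. Lcat exceeded Pltp (higher in 8 of 10 libraries, exact permutation adjusted p = 0.0381), Pltp exceeded Lipg (8 of 10, exact permutation adjusted p = 0.0293), Scarb1 exceeded Lipc (8 of 10, exact permutation adjusted p = 0.0381) and Lipc exceeded Abcg1 (10 of 10, exact permutation adjusted p = 0.0117, raw p = 0.00195, the smallest possible). Lipg against Abca1 missed the threshold (9 of 10, exact permutation adjusted p = 0.134), as did Abca1 against Scarb1 (6 of 10, exact permutation adjusted p = 0.953). The 4 passing pairs became 1 when old 1, old 2 or old 3 was left out and 2 without young 2. The step from Lcat to Pltp was uneven between ages, at 21.2 against 20.4 tags per kb in old (Lcat higher in 3 of 5 libraries) and 32.5 against 18.4 in young libraries (5 of 5). Without the 5 kb on either side Pltp held 6.47 ± 3.95 tags per kb and came after Lipg, Scarb1 and Abca1, and the steps that passed were those from Lcat (55.7 ± 17.9) to Lipg (12.9 ± 8.81) and from Lipc to Abcg1 (exact permutation adjusted p = 0.00586 each). Per kb of called region instead, which leaves out the uncalled part of long genes, the densities were 87.9 for Lcat, 84.4 for Pltp, 52.2 for Lipg, 49.9 for Scarb1, 49.7 for Abca1 and 40.5 for Lipc. On that scale the steps from Pltp to Lipg and from Abca1 to Lipc passed (exact permutation adjusted p = 0.0146 each), and Lcat and Pltp did not differ beyond their spread (exact permutation adjusted p = 0.641).

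**Figure D1:**
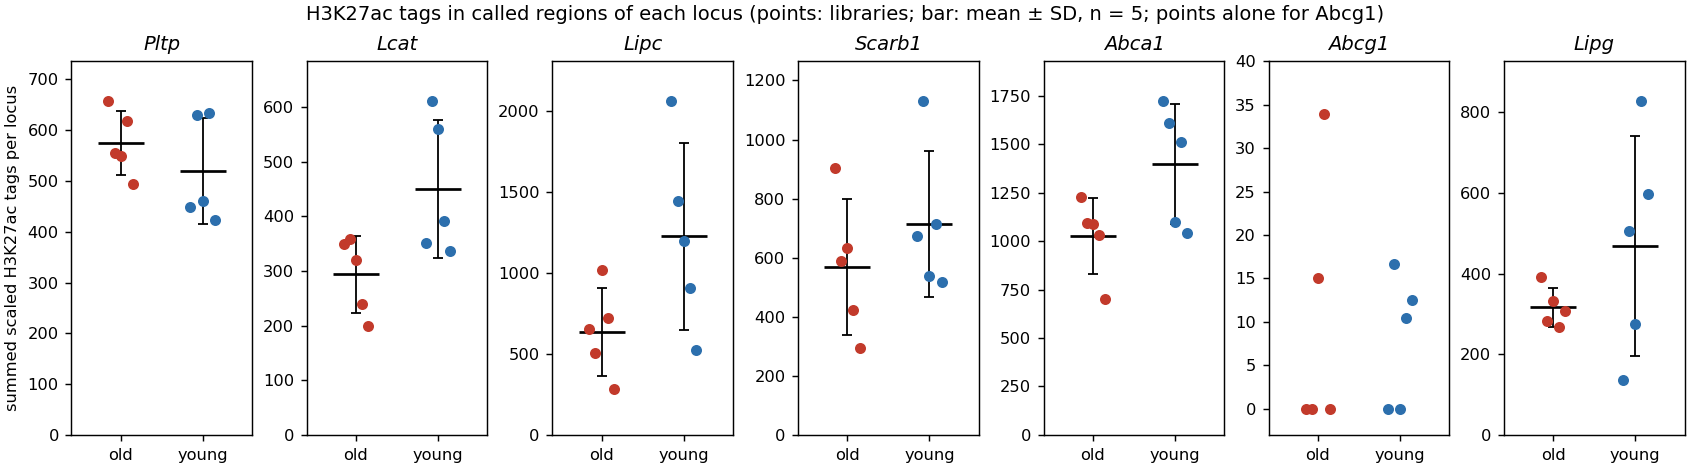
Summed scaled H3K27ac tags in the called regions of each locus (vertical axis, own scale per gene) in 5 old libraries (red, left) and 5 young libraries (blue, right). Points are libraries and bars are mean ± SD. Abcg1 has points only, and none of the other 6 loci separates the ages before adjustment to the median locus.

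Because old-against-young values had been in view, those of the members are given as a description with no test. A region was called in all 10 libraries at 6 of the 7 loci, Abcg1 being the exception. Adjusted tags did not overlap between ages at 1 of these 6 loci, Pltp, higher in old, where 1.99% of all 9703 loci were higher and 1.91% lower in old without overlap. The log2 difference was positive at 2 and negative at 4 loci, with a median of -0.06, against 0.00 over all loci. On the tags as deposited the ages overlapped at all 6 loci, where 9.23% of all loci were lower and 0.0824% higher in old without overlap. Per kb of called length they overlapped at all 6 as well, where 1.63% of all loci were higher and 0.845% lower.

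After adjustment Pltp carried the one locus-wide separation, and it lay at the start of the gene. The locus held 657, 556, 548, 618 and 494 tags in old libraries 1 to 5, and 449, 630.1, 459.8, 635 and 423 tags in young libraries 1 to 5. Young 2 and 4 were as high as the upper old libraries, and they were also the libraries with the highest share of tags in regions (48.2% and 46.5%). After adjustment to the median locus, the old libraries held 678, 557, 561, 749 and 696 tags and the young libraries 474, 459, 459, 464 and 417 tags. All old libraries then lay above all young ones, with a log2 difference of 0.50 ± 0.09 (SE), a ratio of 1.42. As deposited, the log2 difference was 0.16 ± 0.15 and the ages overlapped. The adjustment sets the medians of the libraries equal. A gain at Pltp and a fall smaller than that of the median locus therefore cannot be told apart. In bulk chromatin, more cells carrying the mark and more of it per cell cannot be told apart. The adjusted young values lay close to each other, and 1.62% of all loci had a smaller SD among young libraries on the log2 scale.

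The called length at Pltp was larger in old hepatocytes too after adjustment, while the density pooled over the whole locus was about equal. Regions covered 8.09, 6.93, 7.32, 7.61 and 7.56 kb in old and 4.55, 6.66, 3.61, 7.36 and 7.68 kb in young libraries. Young 1 and 3 were far shorter than any old library, young 2 just shorter, and young 4 and 5 lay within the old range. The adjusted log2 difference in length was 0.55 ± 0.14, again without overlap (1.25% of all loci were higher and 1.36% lower in old without overlap). Tags per kb of called length differed by -0.04 ± 0.15. That density pools blocks of unlike density, and in the block over the start alone, described below, it differed by 0.44 ± 0.08.

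The Pltp locus held 3 merged regions, and only the one over its start separated the ages. Regions from different lists that shared at least 1 bp had been merged, and the smallest of the 3, chr2:164862205-164862705, was called in young 4 alone, with 11.8 tags. The block at the far end, chr2:164832366-164835496, lay beyond the end of Pltp over Neurl2 and Ctsa (Ctsa encodes the lysosomal protective protein cathepsin A), and held 58.5% of the locus tags. It carried 297, 297, 299.9, 334 and 221 tags in old and 322, 433, 386, 375 and 237 tags in young libraries, which overlapped, with an adjusted log2 difference of 0.08 ± 0.15. The block across the start, chr2:164855066-164861467, held 41.3% of the locus tags. It carried 360.2, 259, 248.4, 284 and 273 tags in old and 127, 198, 73.6, 248.1 and 186 tags in young libraries. The ages did not overlap even on the deposited scale, although the lowest old and the highest young library differed by less than 1 tag. The adjusted log2 difference was 1.22 ± 0.27 (0.88 as deposited). In adjusted tags, 2.73% of the 12550 merged regions called in all 10 libraries were higher and 1.69% lower in old without overlap. Per kb of called length the log2 difference was 0.44, still without overlap after adjustment. The share of all merged regions without overlap was not counted on the deposited scale or per kb.

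Within this block the ages separated past the start and overlapped before it. Each library's regions were split by the side of the start on which their midpoint fell, a split made after the values were seen. Regions centred past the start, in the 5′ part of the gene, held 217, 160.4, 107, 169 and 153 tags in old and 19.8, 70.3, 0, 94.5 and 14.5 tags in young libraries, 161 ± 39.4 against 39.8 ± 40.5 (SD, n = 5 each). The lowest old library lay above the highest young one, also after adjustment to the median locus (183 ± 47.8 against 31.1 ± 28.3). Regions centred before the start held 143, 99.0, 142, 115 and 119.9 tags in old and 107, 127, 73.6, 154 and 171 tags in young libraries, 124 ± 18.6 against 127 ± 38.4. After adjustment the old mean was the higher one, 139.97 ± 25.4 against 112 ± 35.6, and the ages overlapped on both scales. In young replicate 5, which had the longest fragments, one region ran from -3579 to 855 around the start and was counted as lying before it, all its tags included. The promoter base at position 0 was covered by a region in 4 of 5 old and in 2 of 5 young libraries, and in old libraries the region past the start reached 1741 to 2642 bp into the gene, against 1783 to 2507 bp in the 4 young libraries that had one. A region is a call at a threshold, so its absence in young replicate 3 does not show that acetylation was absent.

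**Figure D2:**
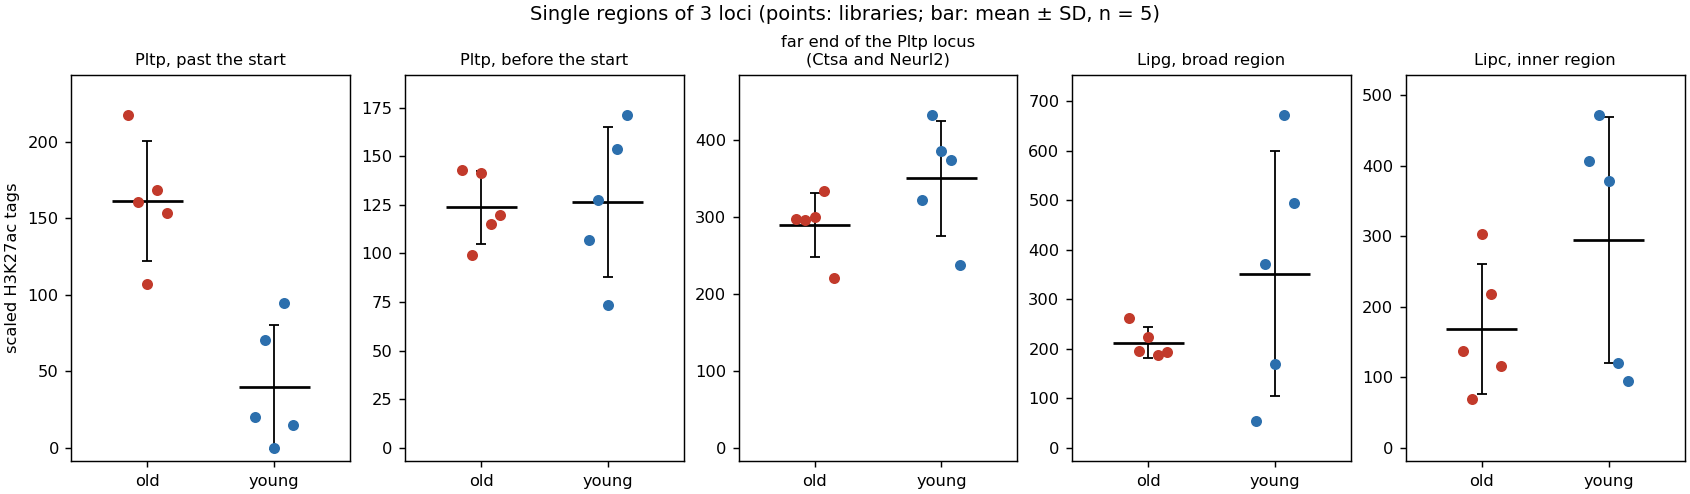
Scaled H3K27ac tags (vertical axis, own scale per panel) of single blocks in 5 old libraries (red, left) and 5 young libraries (blue, right), with mean ± SD as bars. Past the start of Pltp the old libraries sit between 107 and 217 tags and the young ones between 0 and 94.5, while before the start and at the far end over Ctsa and Neurl2, the ages overlap. At the Lipg block the young libraries spread from 54.4 to 672 tags.

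Among the transporters, Abca1 was acetylated in its 5′ part at both ages and Abcg1 hardly at all. The Abca1 locus held 1227, 1091, 1088, 1032 and 703 tags in old and 1722, 1611, 1099, 1511 and 1043 tags in young libraries. Old 5 was the lowest of all 10, and young 3 and 5 lay within the old range, so the ages overlapped, with an adjusted log2 difference of -0.09 ± 0.16. Of 17 merged regions, 3 were called in all libraries and held 91.0% of the tags. The largest, chr4:53137636-53151559, lay inside the gene with its centre 15.4 kb from the span end that holds the start. It carried 528, 437, 589, 389.6 and 320.0 tags in old and 973, 819, 643, 559 and 422 tags in young libraries, an adjusted log2 difference of -0.23 ± 0.26. The block over the start, chr4:53157906-53160842, covered the annotated start in all 10 libraries and carried 217 ± 41.6 tags in old and 280.2 ± 62.3 tags in young libraries. Its adjusted log2 difference was -0.02 ± 0.10, the smallest in size among the start blocks of Pltp, Lcat, Lipc and Abca1.

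Abcg1 was listed at 0 in 3 of 5 old and 2 of 5 young libraries. The others held 15.1 and 33.9 tags in old replicates 3 and 4, and 16.7, 10.5 and 12.5 tags in young replicates 2, 4 and 5. No more than 1 region was called in any library, its 3 merged regions were never shared by all, and no fold was computed.

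Lcat, the esterifying enzyme, had a lower mean in old libraries, with overlap. Its 2 blocks held 349.5, 358, 321, 239 and 200.1 tags in old and 351, 610.4, 559, 390.5 and 337 tags in young libraries. Young 2, 3 and 4 lay above all old libraries, and young 1 and 5 within the old range. The adjusted log2 difference was -0.26 ± 0.18 for tags, -0.03 ± 0.14 for length and -0.23 ± 0.08 for tags per kb, each with overlap. The block over the start, chr8:105940713-105944379, which overlaps Slc12a4, held 174 ± 43.5 tags in old and 255 ± 68.8 in young libraries, and the other, chr8:105936579-105939102 over the proteasome gene Psmb10, held 119 ± 31.4 in old and 195 ± 60.2 in young libraries. Both were called in all 10 libraries, and so was the base at the start of Lcat.

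**Figure D3:**
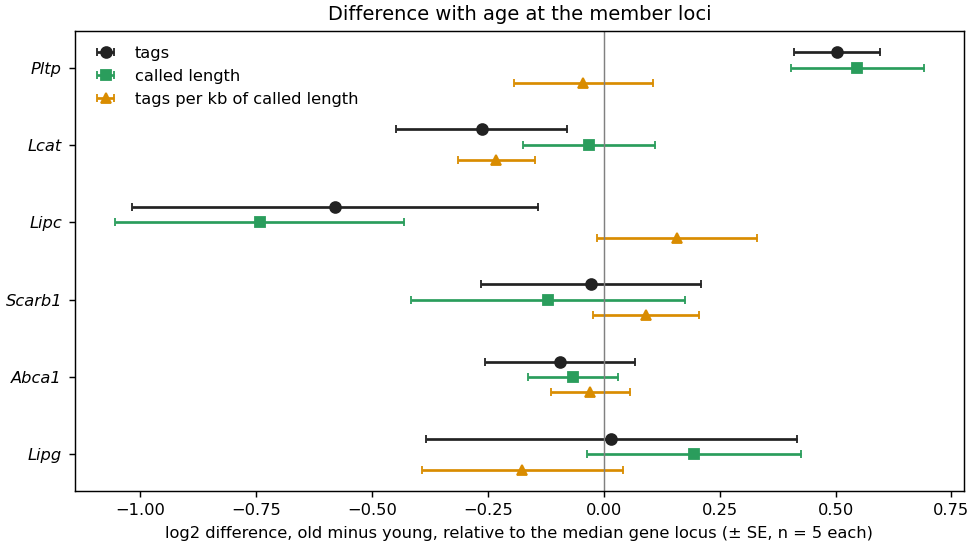
Old-minus-young log2 differences relative to the median gene locus (horizontal axis) for 6 members (rows), with SE as bars and n = 5 libraries per age. Circles are tags, squares called length and triangles tags per kb of called length. Pltp stands to the right in tags (0.50) and length (0.55) but not per kb (-0.04), and Lipc to the left in tags (-0.58) and length (-0.74).

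Of the lipases, Lipc had on average fewer called regions and less called length in old libraries, and Lipg spread widely among young ones. Lipc held 654, 504, 1022, 721 and 287 tags in old and 2064, 1449, 1198, 906 and 527 tags in young libraries. Only young 1 to 3 lay above the highest old library, so the ages overlapped. The adjusted log2 difference was -0.58 ± 0.44 for tags. The called length was 16.6, 16.9, 21.3, 17.7 and 6.92 kb in old and 37.7, 31.4, 28.1, 24.9 and 20.4 kb in young libraries, an adjusted log2 difference of -0.74 ± 0.31, below that of all but 1.36% of the loci. Young 5 lay within the old range. Within the regions the density was similar, at 39.8 ± 6.53 tags per kb in old and 41.2 ± 10.8 in young libraries.

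The Lipc locus was broken into 28 merged regions, the most of any member, of which 4 were called in all libraries and held 74.1% of the tags. A library had 7, 11, 13, 11 and 6 regions in old and 19, 17, 15, 16 and 9 in young hepatocytes. Of the 28, 10 were called in young libraries alone and 4 in old libraries alone, where 23.3% and 15.6% of all merged regions were. Of the pair of annotated starts, the outer one had no region in any library. The inner one, whose promoter is printed above, was covered in all 10 by chr9:70929562-70937528, which also overlaps the noncoding gene Gm32017. That block carried 266, 166, 342, 209.9 and 61.1 tags in old and 531, 323, 248, 286 and 176 tags in young libraries, with overlap and an adjusted log2 difference of -0.35 ± 0.46. A second large block further inside the gene, chr9:70886568-70892437, carried 137, 69.1, 303, 218 and 116 tags in old and 407, 471, 378, 119.5 and 94.6 tags in young libraries. Its young libraries fell into 3 high and 2 low ones. Its SD on the log2 scale was above that of 97.6% of regions in young and of 96.5% in old libraries.

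**Figure D4:**
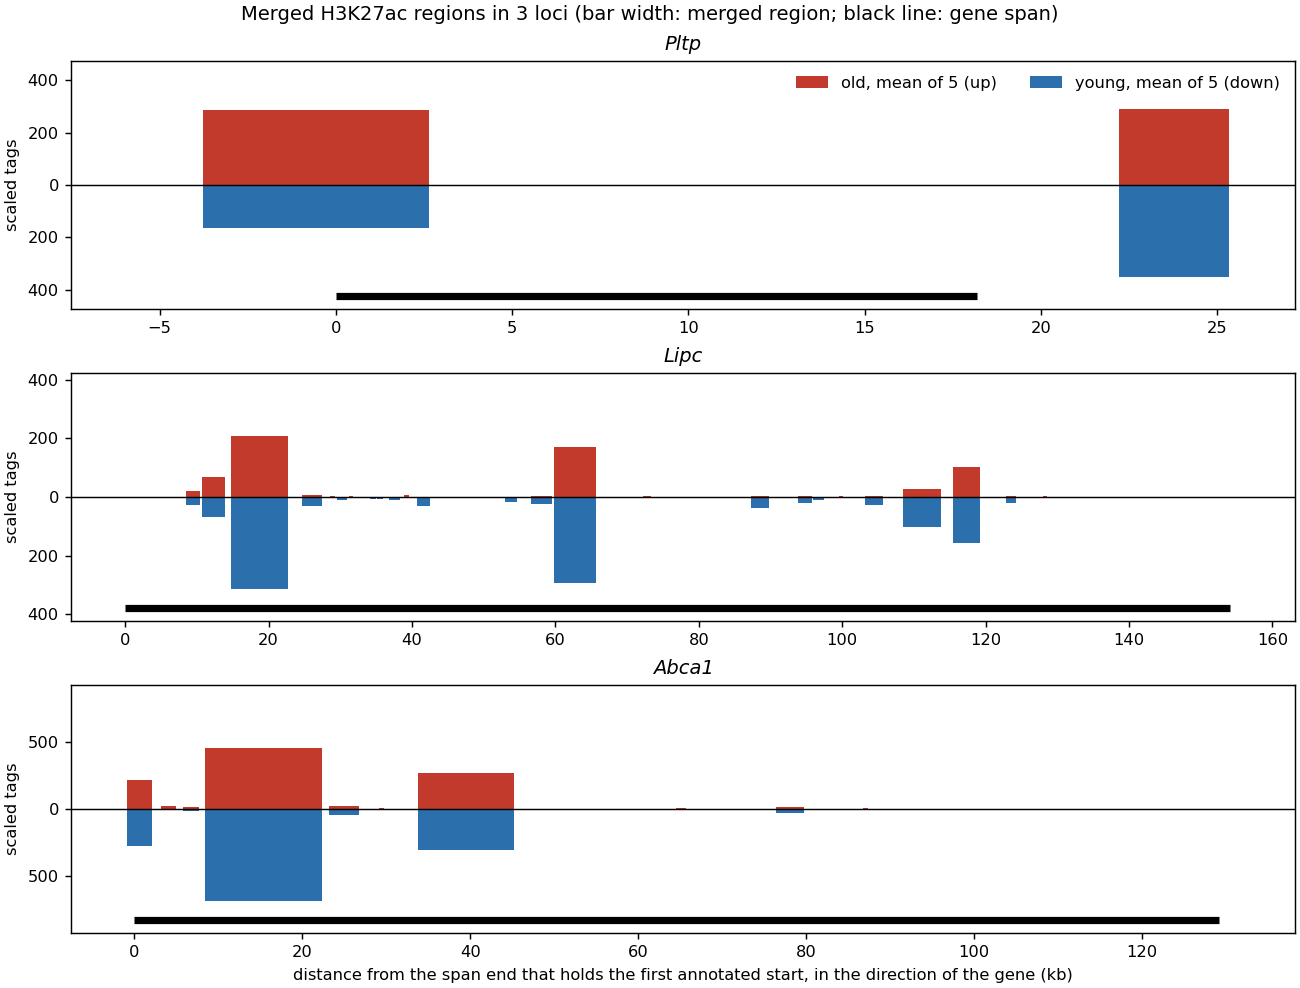
Merged H3K27ac regions of Pltp, Lipc and Abca1 along the gene. The horizontal axis is the distance in kb from the span end that holds the first annotated start, the black line is the gene span, bar width is the merged region, and bar height is the mean of scaled tags over 5 old libraries (red, up) and 5 young libraries (blue, down). The Pltp block over the start is higher in old (285 against 166), whereas Lipc shows 28 small and large regions spread over the gene.

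Lipg, endothelial lipase, with its span at chr18:74939322-74961263, had almost the same mean at both ages after adjustment, and its young libraries lay farther apart than its old ones. The locus held 392, 282, 331, 268 and 307 tags in old and 135, 506, 276, 828 and 597 tags in young libraries. The young libraries spanned a 6.11-fold range around the old ones, which spanned 1.46-fold. The adjusted log2 difference was 0.02 ± 0.40. Most tags lay in one block at the higher-numbered end of the span, chr18:74956712-74963088, with 71.9% of the tags. It carried 262, 196, 223, 187 and 194 tags in old and 54.4, 371, 168, 672 and 494 tags in young libraries, a 1.40-fold range against a 12.3-fold range. The SD among young libraries on the log2 scale was larger than in 98.6% of the 12550 regions. The share of tags in regions was 36.4%, 48.2%, 35.1%, 46.5% and 34.6% in young libraries 1 to 5, and its part in this spread was not tested. The block at the lower-numbered end, chr18:74934260-74937306 by the pseudogene Gm18786, was steadier, at 104 ± 20.2 tags in old and 106 ± 23.3 in young libraries.

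Scarb1, the HDL receptor, showed no separation by age. The locus held 902, 588, 634, 423 and 295 tags in old and 674, 1129.9, 539, 714 and 516 tags in young libraries. The ages overlapped over most of their range, and the adjusted log2 difference was -0.03 ± 0.24. Of 14 merged regions, 3 were called in all libraries, and the largest, chr5:125335710-125341571 across the higher-numbered end of the span, held 182 ± 74.3 tags in old and 213 ± 65.9 in young libraries. Of the 71 merged regions of all members, 16 were called in all libraries, 19 in young libraries alone and 9 in old libraries alone. Counting zeros, 1 of the 71 separated the ages without overlap, the block over the Pltp start (1.20% of all 46762 merged regions were higher in old and 0.770% lower).

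The loci that varied most like a member over the 10 libraries were picked among loci on other chromosomes with a region in every library, by Pearson's r of the adjusted log2 tags. They are a description of chosen pairs, so no p is given, and r is repeated without the 2 libraries farthest from the member's median. For Pltp they were Tceanc (r = 0.93, rho = 0.87, 0.86 without 2) and Fbxo44 (0.92, 0.85, 0.90). For Lcat they were Lrrc59 (r = 0.95, rho = 0.82, 0.81 without 2) and Emg1 (0.93, 0.92, 0.77), and for Lipc Amacr (r = 0.97, rho = 0.99, 0.97 without 2) and Manba (0.97, 0.99, 0.91). For Scarb1 they were C4b (r = 0.89, rho = 0.88, 0.80 without 2) and Napb (0.86, 0.94, 0.84). For Abca1 they were Stat5b (r = 0.95, rho = 0.85, 0.84 without 2) and Ambra1 (0.94, 0.70, 0.62), and for Lipg Birc5 (r = 0.98, rho = 0.98, 0.95 without 2) and Hpd (0.97, 0.93, 0.90). All points share the depth and tag share of their library. The 10 libraries mix both ages and the age means were not removed. So r also holds any difference between ages, such as that at Pltp.

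Among the members themselves, library-to-library deviations within each age were compared over 15 pairs by a two-sided exact permutation within ages (14400 orders), a comparison chosen after the values were seen. None passed adjustment, and 3 had an unadjusted p under 0.05 for Pearson's r. Lipc and Abca1 had a positive correlation (r = 0.79, exact permutation p = 0.0103, adjusted p = 0.0802; rho = 0.65, permutation p = 0.0761, adjusted p = 0.327; r = 0.52 without the 2 farthest libraries). Lipc and Lipg had a negative one (r = -0.82, exact permutation p = 0.0107, adjusted p = 0.0802; rho = -0.60, permutation p = 0.109, adjusted p = 0.327; r = -0.55 without the 2 farthest). The 2 libraries left out in both were young 1, the highest at Lipc and the lowest at Lipg, and young 5. The third pair was Abca1 and Lipg (r = -0.78, exact permutation p = 0.0435, adjusted p = 0.218, with rho = -0.30, permutation p = 0.462, and r = -0.55 without the 2 farthest). By rank, Lcat with Scarb1 and Scarb1 with Abca1 had an unadjusted p under 0.05 (rho = 0.75, exact permutation p = 0.0336, adjusted p = 0.252 each), with r = 0.42 (exact permutation p = 0.194) for Lcat with Scarb1 and r = 0.52 (exact permutation p = 0.0846) for Scarb1 with Abca1.

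The wider HDL and cholesterol pathway gave 58 further genes in 5 lists, of which 46 had a region in all libraries and could be tested. By limma with Benjamini-Hochberg adjustment over all 9703 loci, 0 of the 46 were higher and 0 lower in old, where 0.216% of all loci passed. At an unadjusted p under 0.05 there were 7 of 46, against 13.7% of all loci. The 7 were Abcg5, Abcg8, Npc2, Angptl8, Nr1h4, Rxra and Hnf4a. Of the 46, edgeR called 0 and DESeq2 1, where they called 47 and 298 of all 9703 loci. That 1 was Rxra, the partner of liver X receptors in DNA binding. Rxra held 1568 ± 333 tags in old and 3073 ± 1085 tags in young libraries, an adjusted log2 difference of -0.59 ± 0.15 (limma adjusted p = 0.133), and 0.01 per kb of called length. The 46 log2 differences were positive at 20 and negative at 26 loci, with a median of -0.04 against 0.00 over all loci.

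Lists are described by their counts, and in each the pair of genes with the largest absolute difference is named. Over all loci 50.4% of the differences were positive, and no list was tested as a set. Of the HDL and lipoprotein proteins, 2 of 14 differences were positive and 12 negative (median -0.20). The largest were at Apoa4, an apolipoprotein of HDL and chylomicrons (-0.43 ± 0.23, limma adjusted p = 0.431), and Apoc2, the activator of lipoprotein lipase (-0.31 ± 0.27, limma adjusted p = 0.633), and neighbouring apolipoprotein genes share regions. Of the genes for sterol export, storage and trafficking, 7 of 10 were positive (median 0.31, with 3 at an unadjusted p under 0.05). The largest were at Stard3, a cholesterol transfer protein of late endosomes (0.66 ± 0.37, limma adjusted p = 0.454), and Abcg5, one side of the transporter that secretes sterols into bile (0.48 ± 0.15, limma adjusted p = 0.224). Abcg8, its partner gene, adjoins it. Per kb of called length Stard3 had 0.09 and Abcg5 0.02.

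Receptors, adaptors and uptake genes had 1 positive and 3 negative differences (median -0.04), the largest at Lrp1, the receptor for remnant particles (-0.14 ± 0.19, limma adjusted p = 0.771), and Pdzk1, the adaptor of SR-BI (0.07 ± 0.27, limma adjusted p = 0.925). Lipases and their inhibitors had 2 positive and 3 negative (median -0.15), the largest at Angptl8 (0.44 ± 0.15, limma adjusted p = 0.236) and Angptl4 (-0.32 ± 0.16, limma adjusted p = 0.386), secreted inhibitors of lipoprotein lipase. Of the transcriptional regulators, 8 of 13 were positive (median 0.06, with 3 at an unadjusted p under 0.05). Nr0b2, the corepressor SHP, had 0.67 ± 0.39 (limma adjusted p = 0.470), and Nr1h4, the bile acid receptor FXR, had -0.61 ± 0.26 (limma adjusted p = 0.333). Nr1h3, encoding liver X receptor alpha, which drives Abca1 and Abcg1, had 480 ± 37.1 tags in old and 584 ± 58.7 tags in young libraries, an adjusted log2 difference of 0.06 (limma adjusted p = 0.818). Abcg8, Npc2, Hnf4a, Nr1h3 and Rxra are named outside the rule of 2 per list, with their values known.

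**Figure D5:**
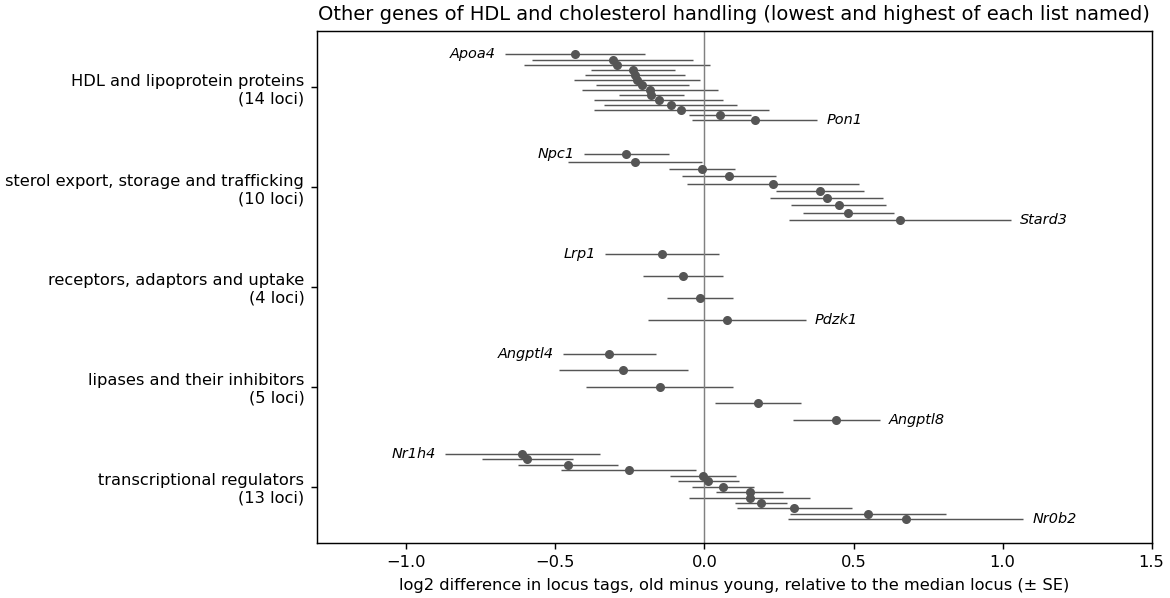
Old-minus-young log2 differences in tags relative to the median gene locus (horizontal axis) for 46 other genes of HDL and cholesterol handling, one point per locus with SE as bar, grouped by list (n = 5 libraries per age). The lowest and the highest locus of each list are named. Left of 0 lie 12 of 14 HDL and lipoprotein proteins and right of it 7 of 10 genes of sterol export, where 50.4% of all loci were positive. Neighbouring apolipoprotein genes share regions and Abcg8 adjoins Abcg5, so the points are not all independent. No locus passed the limma threshold.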

How the data were processed

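H3K27ac ChIP-seq was analysed in 10 libraries of isolated hepatocytes, 5 old and 5 young. The series lists 20 samples, and the 10 input samples entered only through the input values in the region lists. HOMER was run by the authors on each library, per the file headers, against its own input and without pooling, stitching peaks of 500 bp within 1000 bp, at 4-fold over input (Poisson p of 1e-04) and 4-fold over the surrounding 10000 bp. The submitters' processing notes name mm10 as build. Neither an aligner nor a HOMER version is given in the sources used here. The main value was a signal, the tags per region scaled by the authors to 10000000 per library. The unscaled tags, estimated counts that the authors deposited in steps of 0.5, were rounded for edgeR and DESeq2. The authors' score and the fold over input, a ratio deposited per region with a minimum of 4, only described or filtered regions. The input tags, also a signal of the authors, were subtracted in one alternative. Human spike-in chromatin was added per the labels, and spike-in scaled values were not used.

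Per library, whole regions overlapping a gene span ± 5 kb (GRCm38.p6 RefSeq) were summed, log2(tags + 1) was taken, and each library was centred on the median of 9703 loci. Such a sum moves with the called length, so length and tags per kb stand beside it. Two-sided tests used limma 3.58.1 (mean-dependent prior, Benjamini-Hochberg at 0.05), edgeR 4.0.16 (quasi-likelihood) and DESeq2 1.42.0 in R 4.3.3, and exact permutation in Python 3.11.15 (numpy 2.4.6, pandas 2.3.3, scipy 1.17.1, matplotlib 3.10.9). The limma step was tested on simulated data. The members and lists were chosen with earlier results of these data known. Named were all members, and per pathway list each gene past the threshold and the 2 with the largest absolute difference. Alternatives were the centring, tags per kb, extensions of 0 and 20 kb, proration of regions to the locus, a pseudocount of 10, regions of at least 8-fold, input subtraction, TMM factors, looser filters on called loci, the replicate number as block, the share of tags in regions as covariate and each library left out. The depth limits weak regions, and errors cover the spread between libraries only.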

Additional observations from a re-analysis of the deposited data

Results flagged for a closer look

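Among 68 groups of 5 libraries (the members' locus values and merged regions, by age), 1 held a value far from the others. The called length at Abca1 was 18991 bp in young replicate 3, against 27250 to 29101 bp in the other 4 young libraries, a gap of 0.817 of the range. Chance flags about 1 in 20 such groups.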

How the results depend on the processing

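The adjusted Pltp difference of 0.50 kept its direction and the separation of ages with a 20 kb extension, proration to the locus (1.00), a pseudocount of 10, input subtraction, TMM factors and each library left out (0.45 to 0.56). Without centring it was 0.16 and the number of separated members 0, and per kb of called length it was -0.044 and the number 0. With no extension the number was 0, and Pltp had no difference computed, since young 3 had no region inside the Pltp span. The ages overlapped there among the other libraries. A region of young 5 that ran across the start counted whole, with 171.1 tags as deposited, against 106.9 tags in the region of old 3 past the start. The start block alone, added after seeing the data, ran from 1.00 to 1.32 with libraries left out. Without centring Lcat was -0.61, and Abca1 was -0.44 in tags and -0.23 in length. Lipc was -0.58 in tags, -0.74 in called length and 0.16 per kb. With libraries left out, tags ranged from -0.37 to -0.13 (Lcat), -0.81 to -0.29 (Lipc), -0.19 to 0.10 (Scarb1), -0.16 to 0.05 (Abca1) and -0.30 to 0.21 (Lipg), and length from 0.45 to 0.61 (Pltp), -0.11 to 0.07 (Lcat), -0.91 to -0.55 (Lipc), -0.30 to 0.04 (Scarb1), -0.10 to 0.00 (Abca1) and -0.02 to 0.27 (Lipg). The sign turned in tags at Abca1 without young 1, at Scarb1 without old 4, old 5, young 1 or young 2 and at Lipg without old 1, old 5, young 1 or young 3, and in length at Lcat without young 3, Lipg without young 1 and Scarb1 without old 5 or young 2. Regions of at least 8-fold over input gave a value only at Lipc (-1.03) and Abca1 (0.02). The 4 separated neighbour pairs in level became 2 per kb of called length, 2 with no extension (where Pltp also lost its place next to Lcat) and 1 to 4 with libraries left out (1 without old 1, old 2 or old 3, 2 without young 2). For the pathway, DESeq2 called 1 locus (Rxra, lower in old), and every other alternative called 0. Deviations from the age means correlated over 0.1 in 2 of 5 pairs of old and young libraries with the same replicate number. That does not settle whether the libraries were paired. In limma with the replicate number as a block, 0 pathway loci passed (12 at an unadjusted p under 0.05), while 4 instead of 21 of all loci did. Over all loci, edgeR called 47, DESeq2 298, limma without centring 87, per kb 9, with the share of tags in regions as covariate 0, and with 1 library left out 2 to 61. Calls depend on depth, and the lack of a call does not show the lack of the mark.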
